A study of Mus musculus with 12 samples.

Results

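Transcripts of 10 circadian clock genes were examined in lumbar dorsal root ganglia (DRG), which house the cell bodies of sensory neurons, of 9-day-old wild-type mice. The 10 genes were chosen by name (Clock, Arntl, Npas2, Per2, Per3, Cry1, Cry2, Nr1d1, Dbp and Bhlhe40), and all 10 were among the 15322 genes of the deposited table. The choice was made with earlier results of these data known, so the number of them called is not an independent result. The limited bedding group, called stress here, held 3 female and 3 male libraries from pups kept with their dam on scarce bedding between postnatal days 2 and 9. The control group held 3 female and 3 male libraries from pups kept on control bedding over the same days. Ganglia L3 to L5 were taken at day 9 in both groups, and both are of the WT genotype with no transgene named. The sources used here do not give the hour of harvest, the litters, or whether ganglia of several pups were pooled. P-values therefore reflect only how these 12 samples vary, part of which may be technical, and any difference in hour or litter between the groups cannot be told apart from the bedding.

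The molecular clock is a loop of transcription and feedback that runs in nearly every cell. A pair of activators, CLOCK (or its relative NPAS2) with ARNTL, also called BMAL1, switches on genes that carry E-box sequences, among them the Period and Cryptochrome genes, whose proteins return to silence the activators. A second loop, in which the REV-ERB receptor NR1D1 represses Arntl and ROR receptors activate it, and a set of bZIP factors led by DBP, which acts on D-box sequences, shape the timing of the transcripts. Glucocorticoid hormones, which stress releases, are a known timing signal for clocks outside the brain.

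Values are normalized counts, the authors' read counts per gene after scaling between libraries. Depth, estimated from the smallest steps between low values, was 16500000 to 27000000 reads in 11 libraries and could not be read well in stress female replicate 2, where 28.9% of low values lay near a whole read. That share was 61.3% to 65.8% in the other stress libraries and 72.5% to 86.6% in control libraries. The label of the tissue held: all 12 sensory neuron markers were in the table, each with a mean of at least 2007 normalized counts. Marker levels of several cell types differed with the bedding. The summed red blood cell markers stood at 7166 to 15698 normalized counts in stress libraries and 5084 to 7222 in control libraries, with 12 of 14 markers tested higher and none at 0. The summed sensory neuron markers were at 459980 to 502942 in stress and 582789 to 623699 in control (2 of 12 higher, 5 lower), and satellite glia markers at 61580 to 75357 in stress and 80545 to 88240 in control (3 of 12 higher, 6 lower). Fibroblast markers were at 80259 to 116785 in stress and 123290 to 131289 in control (none of 8 higher, 5 lower), and markers of cycling cells at 2618 to 3754 in stress and 2165 to 2548 in control (7 of 8 higher). Cartilage and bone markers were at 414 to 499 in stress and 959 to 1124 in control (1 of 4 tested higher, 1 lower). Schwann cell markers overlapped, at 276085 to 392671 in stress and 261601 to 429190 in control (none of 10 higher, 2 lower), and none of 9 macrophage, 7 endothelial or 6 skeletal muscle markers was called. In whole ganglia fewer cells of a type and less RNA per cell cannot be told apart. The median log2 fold change of single markers was 1.59 for red blood cells, 0.48 for cycling cells and -0.46 for fibroblasts. It was -0.02 for sensory neurons, -0.11 for satellite glia and -0.09 for cartilage and bone, lists with markers called in both directions. The part of these marker differences in the clock results was not tested, beyond the values given below with a marker score as a covariate.

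Over both sexes, 7 of the 10 clock genes passed the test between stress and control. The activators Arntl and Npas2 and both cryptochromes rose, while Dbp, Per3 and the repressor Bhlhe40 fell. Per3 fell furthest, to 61.4% of the control mean, and Dbp to 66.0%. Clock, Per2 and Nr1d1 did not pass. A gene was called where limma gave a p below 0.05 after Benjamini-Hochberg adjustment, fitted to log2(value + 1) over all 15194 genes that passed a filter on low values, and by that rule 26.2% of all genes were called, 12.8% higher and 13.4% lower. All 10 clock genes passed the filter, at least 10 normalized counts in at least 3 libraries. In 4 genes the 6 stress and 6 control libraries did not overlap, Npas2 and Cry2 with stress above and Dbp and Bhlhe40 with stress below, against 10.9% of all genes, 5.21% with stress above and 5.73% with stress below. The median log2 fold change was 0.07 over the 10 genes and 0.005 over all genes. Because the 10 genes were chosen with earlier results of these data known, their shares beside those of all genes are a description only. With the red blood cell score as a covariate only Per3 and Dbp were still called, and with the satellite glia score Arntl, Per3, Cry2 and Bhlhe40 were. Calls over all genes fell as well, from 3984 to 1151 with the first score and 1423 with the second. Both marker lists differed with the bedding, so a score and the bedding are hard to separate in such a fit. Why a call was lost was not tested.

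**Figure D1:**
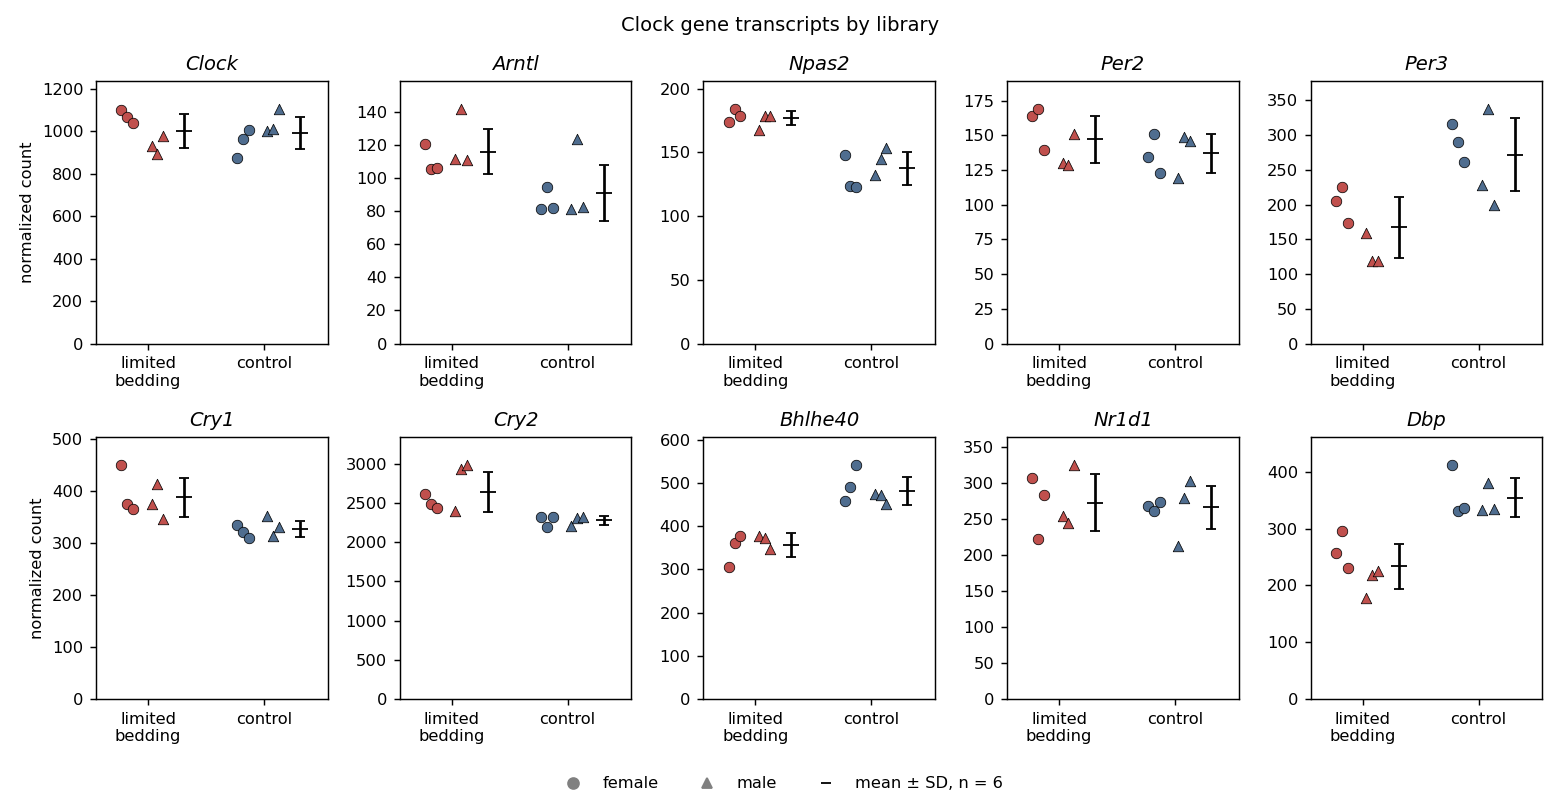
Normalized counts of the 10 clock genes (vertical axes, each from 0) in every library, limited bedding at the left and control at the right of each panel. Circles are females, triangles males, and the bar gives the mean and SD of 6 libraries. The stress libraries of Dbp and Bhlhe40 all lie under the control libraries, and those of Npas2 and Cry2 all lie above them.

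Dbp encodes an activator of the PAR bZIP family, a direct output of the clock. It had 257, 295 and 231 normalized counts in stress females and 177, 219 and 225 in stress males, against 412, 331 and 336 in control females and 333, 380.3 and 335 in control males. Every stress library was under every control library, and the stress males were under the stress females. Dbp averaged 234 ± 39.6 in stress and 355 ± 33.9 in control (SD, n = 6 each), a difference of -0.61 ± 0.09 (SE) in log2 value with a limma adjusted p of 0.000133. It was called without each library in turn and at -0.65 with the score of red blood cells (adjusted p = 0.0128), but not with the satellite glia score (-0.46, adjusted p = 0.0952). Dbp lies on chromosome 7 from 45705088 to 45710203 on the plus strand of mm10 and shares 539 exon bases with Sphk2 on the other strand. No source used here states the strand setting of the counting, so reads from that stretch cannot be assigned with certainty. Sphk2 averaged 812 ± 67.0 in stress and 1004 ± 33.2 in control, a log2 fold change of -0.31 ± 0.05 (limma adjusted p = 0.000174).

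Of the other genes of this family, Tef, a second PAR bZIP activator, fell, and Nfil3, a bZIP repressor that competes for D-boxes, rose. Tef was at 1285 to 1505 normalized counts in stress and 1595 to 1814 in control libraries, a log2 fold change of -0.29 ± 0.05 (limma adjusted p = 0.000212). Nfil3 was at 154 to 184 in stress and 108 to 143 in control libraries, at 0.46 ± 0.10 (limma adjusted p = 0.00323). In both genes the groups did not overlap. The third PAR bZIP activator, Hlf, named after its values were seen, averaged 391 ± 85.8 in stress and 368 ± 64.0 in control and was not called (0.08 ± 0.13, limma adjusted p = 0.695). Thus 1 of 3 rose and 1 fell in this set, while of all genes 12.8% were called higher and 13.4% lower.

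Per3 is a Period gene whose protein joins the repressor complex. In stress it had 206, 226 and 174 normalized counts in females and 159, 119 and 118 in males. In control it had 315, 289.8 and 261 in females and 228, 337 and 199.99 in males. Of the 6 stress libraries, 4 lay under all control libraries, while stress female replicates 1 and 2 lay above control male replicate 3 and below every other control library. The mean was 167 ± 43.9 in stress and 272 ± 52.4 in control (SD, n = 6 each), a difference of -0.72 ± 0.13 (SE) in log2 value with a limma adjusted p of 0.000514. Per3 remained called without each library in turn, with the score of red blood cells (-0.84, adjusted p = 0.0169) and with that of satellite glia (-0.78, adjusted p = 0.0490). It lies on chromosome 4 from 151003652 to 151044665 on the minus strand, and overlaps the same-strand gene Camta1, with which it shares 0 exon bases and which rose (0.30 ± 0.05, limma adjusted p = 0.000159).

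The window around the Per3 start site is shown because it carries the D-box letters on which DBP, TEF and NFIL3 act. It is the RefSeq window of 250 bases before and 50 bases from the start site on, at chr4:151044616-151044915 of GRCm38.p6, minus strand, read 5′ to 3′, with D-box matches in capitals.
Per3: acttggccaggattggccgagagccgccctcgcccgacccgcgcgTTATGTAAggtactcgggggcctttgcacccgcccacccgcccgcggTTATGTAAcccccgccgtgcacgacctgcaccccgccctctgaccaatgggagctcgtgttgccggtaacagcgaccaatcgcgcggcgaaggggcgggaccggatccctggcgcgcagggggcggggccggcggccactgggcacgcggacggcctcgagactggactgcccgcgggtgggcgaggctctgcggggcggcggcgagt
The letters TTANGTAA, searched on both strands, began 205 and 158 bases before the start site, each time as TTATGTAA. They occurred in 2.32% of all 32851 windows of this length, and in none of the other 7 clock genes that had a window. A match is a description of letters and does not show binding.

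Neither of the other Period genes passed the test. Per2 was at 129 to 169 normalized counts in stress (median 145) and 119 to 151 in control (median 140.3), and the groups overlapped, with 3 stress libraries above all control libraries. Its log2 fold change of 0.10 ± 0.10 had a 95% interval from -0.12 to 0.32 (limma adjusted p = 0.508). Per1, named after its values were seen, was at 447, 404 and 682 in stress females and 428, 542 and 797 in stress males, against 422 to 469.9 over the 6 control libraries. Of the 6 stress libraries 3 lay well above every control library, and 3 lay within or under the control range. Per1 was not called (0.25 ± 0.13, limma adjusted p = 0.177).

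Bhlhe40, also called Dec1, is a basic helix-loop-helix repressor that competes at E-boxes. In stress it had 305, 360.2 and 377 normalized counts in females and 378, 372 and 346 in males. In control it had 459, 489.5 and 542 in females and 474, 471 and 451 in males. The groups did not overlap, and the mean was 356 ± 27.6 in stress and 481 ± 32.6 in control. That is a difference of -0.43 ± 0.07 (SE) in log2 value with a limma adjusted p of 0.000224. With the red blood cell score it was at -0.32 and not called (adjusted p = 0.0716). Bhlhe40 lies on chromosome 6 from 108660629 to 108666925. Its close relative Bhlhe41, named after its values were seen, averaged 888 ± 78.3 in stress and 976 ± 41.3 in control and was not called (-0.14 ± 0.06, limma adjusted p = 0.0848).

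Of 6 other repressors and their partners, 2 fell and none rose (33.3% called, against 26.2% of all genes, 13.4% lower). Cipc, a CLOCK-interacting repressor, was at 1217 to 1409 normalized counts in stress and 1474 to 1530.3 in control libraries (-0.22 ± 0.04, limma adjusted p = 0.00205). Timeless, better known in mammals for DNA replication, averaged 482 ± 68.4 in stress and 562 ± 17.8 in control (-0.23 ± 0.06, limma adjusted p = 0.00636).

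Npas2 is the alternative partner of ARNTL. It had 174, 184 and 178 normalized counts in stress females and 167, 179 and 178 in stress males, against 148, 124 and 122 in control females and 132, 145 and 154 in control males. The 6 stress libraries lay in a narrow band above all 6 control libraries. The mean was 177 ± 5.63 in stress and 137 ± 13.2 in control, a difference of 0.37 ± 0.09 (SE) in log2 value with a limma adjusted p of 0.00633. The estimate was alike with the score of red blood cells (0.37, adjusted p = 0.126) and with the satellite glia score (0.41, adjusted p = 0.142), but the call was lost. Npas2 lies on chromosome 1 from 39193731 to 39363236.

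Arntl encodes the activator that pairs with CLOCK or NPAS2. It had 120.3, 105 and 106 normalized counts in stress females and 112, 142 and 111 in stress males. In control it had 81.4, 94.6 and 82.0 in females and 81.0, 124 and 82.7 in males. Only control male replicate 2 reached into the stress range. Arntl averaged 116 ± 13.6 in stress and 90.9 ± 16.9 in control, a difference of 0.36 ± 0.13 (SE) in log2 value with a limma adjusted p of 0.0491. This call stands at the threshold: leaving out any library other than control male replicate 2 put the adjusted p between 0.0539 and 0.116, and leaving out that library gave 0.46 (adjusted p = 0.0138). Given the score of red blood cells it was at 0.25 (adjusted p = 0.510) and at 0.75 with the satellite glia score (adjusted p = 0.0396). Its relative Arntl2 averaged 19.0 ± 5.88 in stress and 25.2 ± 11.2 in control and was not called (-0.34 ± 0.31, limma adjusted p = 0.457).

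Arntl is the target of the loop of REV-ERB and ROR receptors, and the window of its downstream start site, at chr7:113207261-113207560 on the plus strand, is shown with the receptor site TAGGTCA in capitals.
Arntl: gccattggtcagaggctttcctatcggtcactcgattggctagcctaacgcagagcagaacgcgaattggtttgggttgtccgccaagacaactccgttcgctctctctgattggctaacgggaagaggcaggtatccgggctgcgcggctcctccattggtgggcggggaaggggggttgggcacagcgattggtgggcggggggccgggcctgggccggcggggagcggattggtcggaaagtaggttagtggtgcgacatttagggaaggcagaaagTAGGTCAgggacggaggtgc
The site began at base 31 counted from the start site. TAGGTCA or its reverse complement occurred in 2.61% of all windows, and in no other clock gene here.

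Clock, the other activator, did not pass the test over both sexes. It averaged 999.8 ± 80.5 normalized counts in stress and 991 ± 75.2 in control, a log2 fold change of 0.01 ± 0.05 with a 95% interval from -0.10 to 0.12 (limma adjusted p = 0.891). Within the sexes the values ran in opposite directions. In females it had 1098, 1064 and 1038 in stress against 871, 962 and 1004 in control, with stress above control in every library (0.18 ± 0.07, limma adjusted p = 0.131). In males it had 931, 890.2 and 978 in stress against 999, 1009 and 1103 in control, with stress below control in every library (-0.15 ± 0.07, limma adjusted p = 0.166). The male effect minus the female effect was -0.33 ± 0.10 and did not pass (limma adjusted p = 0.515). How many of all genes separate within both sexes in this way was not counted.

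The cryptochromes, the main repressors of the CLOCK and ARNTL dimer, both rose. Cry2 had 2614, 2492 and 2441 normalized counts in stress females and 2402, 2932 and 2988 in stress males, against 2196 to 2320.1 in control (median 2315). Each stress library lay above all control libraries, and the stress libraries were more spread. The mean was 2645 ± 255 in stress and 2278 ± 61.3 in control, a difference of 0.21 ± 0.05 (SE) in log2 value with a limma adjusted p of 0.00672. It was called with the satellite glia score (0.37, adjusted p = 0.0138) and not with that of red blood cells (0.19, adjusted p = 0.177).

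Cry1 had 450.4, 375 and 365 normalized counts in stress females and 376, 412 and 346 in stress males, against 309 to 352 in control (median 326). Of the 6 stress libraries 5 lay above all control libraries, and stress male replicate 3 lay within the control range. The mean was 388 ± 37.7 in stress and 327 ± 15.5 in control, a difference of 0.24 ± 0.07 (SE) in log2 value with a limma adjusted p of 0.0220. The call was lost without stress female replicate 1 (0.19, adjusted p = 0.0666), stress male replicate 2 (0.21, adjusted p = 0.0540) or control male replicate 2 (0.22, adjusted p = 0.0573). Leaving out the third control female also ended it (0.23, adjusted p = 0.0501). With the red blood cell score it was at 0.04 (adjusted p = 0.838) and with the satellite glia score at 0.31 (adjusted p = 0.179).

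The Cry1 window, at chr10:85185005-85185304 on the minus strand, is shown because it carries an E-box, the letters through which the activators act, beside a variant of it, both in capitals.
Cry1: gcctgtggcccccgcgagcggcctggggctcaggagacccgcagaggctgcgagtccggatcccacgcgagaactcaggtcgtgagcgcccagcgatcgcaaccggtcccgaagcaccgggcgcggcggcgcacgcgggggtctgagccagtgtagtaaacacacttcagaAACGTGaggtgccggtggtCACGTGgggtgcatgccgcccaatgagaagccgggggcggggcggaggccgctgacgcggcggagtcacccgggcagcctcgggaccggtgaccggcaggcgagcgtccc
The E-box CACGTG began 60 bases before the start site and the variant CACGTT, on the other strand as AACGTG, began 79 bases before it. CACGTG occurred in 7.15% of all windows and CACGTT on either strand in 4.68%. The variant was also in the windows of Cry2 and Nr1d1, 166 and 28 bases before the start. The palindromic glucocorticoid response element occurred in 0.475% of all windows and in none of the 11 windows of the 8 clock genes that had one. No match was found for Npas2, Clock or Dbp with any of the 5 motifs, which says only that these letters are not in these windows. Per2 and Bhlhe40 had no window in the table.

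Nr1d1, or REV-ERB alpha, the receptor that represses Arntl, did not pass the test. It was at 223 to 326 normalized counts in stress (median 269) and 213 to 303 in control (median 271), and the groups overlapped, with 2 stress libraries above all control libraries and control male replicate 1 below all stress libraries. Its log2 fold change was 0.03 ± 0.11 with a 95% interval from -0.19 to 0.26 (limma adjusted p = 0.863). Nr1d1 shares 263 exon bases with Thra on the other strand, which rose by 0.44 ± 0.04 (11254 ± 872 in stress and 8280.5 ± 286 in control, limma adjusted p = 2.37e-06). Of the other receptors of this loop, those reported here, Nr1d2 and Rora, fell, while 13.4% of all genes were called lower. Nr1d2, the second REV-ERB, was at 484 to 704 in stress and 697 to 851 in control (-0.40 ± 0.06, limma adjusted p = 0.000231). Rora averaged 165 ± 33.9 in stress and 215 ± 25.6 in control (-0.40 ± 0.12, limma adjusted p = 0.0263).

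By sex, 3 of the 10 clock genes were called in females (Npas2 higher, Dbp and Bhlhe40 lower), where 11% of all genes were called, 4.96% higher and 6.07% lower. In males 4 were called (Cry2 higher, Per3, Dbp and Bhlhe40 lower), where 15.8% were called, 7.71% higher and 8.11% lower. Dbp was at -0.46 ± 0.13 in females (limma adjusted p = 0.0290) and -0.76 ± 0.13 in males (limma adjusted p = 0.000931). Bhlhe40 was at -0.52 ± 0.10 in females (limma adjusted p = 0.00282) and -0.35 ± 0.10 in males (limma adjusted p = 0.0219). Per3 was at -0.52 ± 0.18 in females (limma adjusted p = 0.0703) and -0.92 ± 0.18 in males (limma adjusted p = 0.00243). Several of these calls were lost when 1 library was left out, which also leaves fewer libraries in its group. The Npas2 estimate in females was then 0.40 to 0.47 where the call was lost, against 0.45 in full. In females Npas2 was not called without any 1 of the stress females or control female replicate 2 or 3 (adjusted p of 0.0673 to 0.114), nor Dbp without stress female replicate 1 (0.0861) or 3 (0.105) or control female replicate 1 (0.143). In males Cry2 was not called without stress male replicate 2 (0.0637) or 3 (0.0755) or control male replicate 1 (0.0621), nor Bhlhe40 without stress male replicate 3 (0.0772) or control male replicate 1 (0.0649) or 2 (0.0731). The sexes were not shown to differ: none of the 10 genes passed the test of the male effect minus the female effect with limma, 1 (Clock) had an unadjusted p under 0.05, and of all genes 0% were called and 1260 had an unadjusted p under 0.05. For Per3 that difference was -0.40 ± 0.25 (limma adjusted p = 0.672) and for Dbp -0.30 ± 0.18 (limma adjusted p = 0.671). Between males and females over both treatments none of the 10 was called, against 0.0987% of all genes, 0.0395% higher and 0.0592% lower in males. The lowest p was that of Per3, lower in males (-0.41 ± 0.13, limma adjusted p = 0.395).

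**Figure D2:**
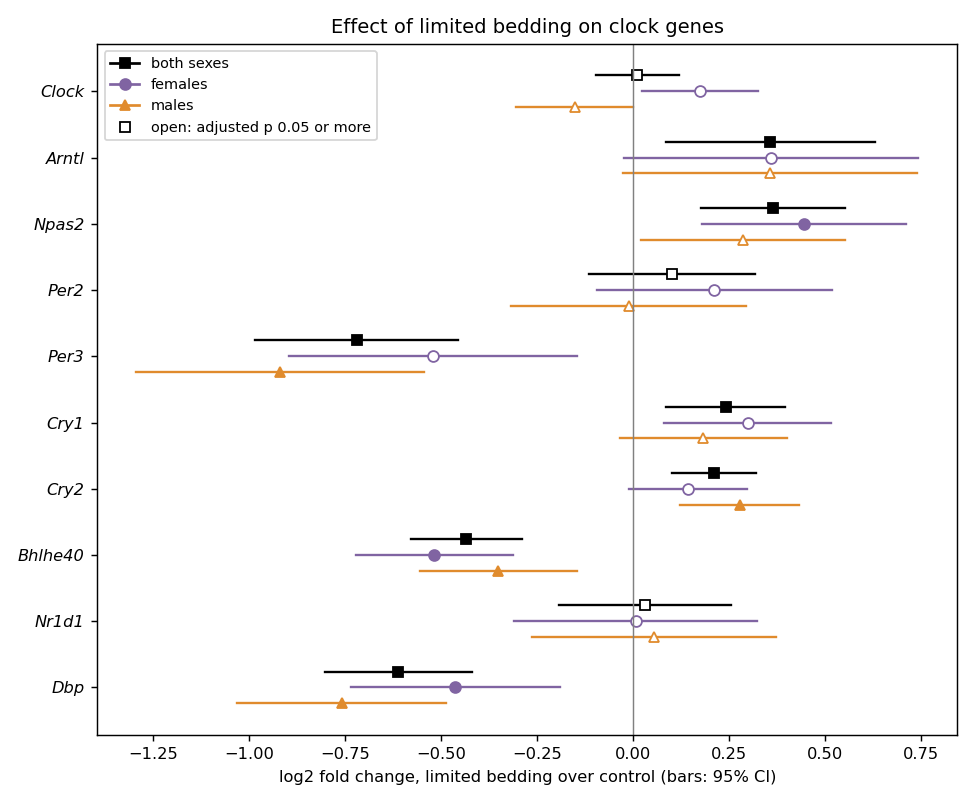
Log2 fold change of limited bedding over control (horizontal axis, bars are 95% confidence intervals) for the 10 clock genes, over both sexes (squares), in females (circles) and in males (triangles). Filled symbols passed an adjusted p of 0.05. Dbp and Bhlhe40 are filled in all 3 comparisons, and Clock lies on opposite sides of 0 in females and males.

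Levels were compared between genes per kilobase of annotated exon, which understates genes with long rare exons such as Clock with 13.7 kb. Cry2 was highest, with 418 ± 40.4 normalized counts per kb in stress and 360.4 ± 9.70 in control, several times any other clock gene. Arntl had the lowest mean, with 15.4 ± 1.81 in stress and 12.1 ± 2.24 in control, although in stress males Per3 averaged less (13.8 ± 2.42, against 16.1 ± 2.32 for Arntl). In control libraries Dbp (118 ± 11.3) was next, followed by Bhlhe40 (102 ± 6.93), Cry1 (97.8 ± 4.64), Nr1d1 (86.6 ± 9.65) and Clock (72.2 ± 5.48). In stress libraries Cry1 was next (116 ± 11.3 per kb), and Nr1d1 (88.7 ± 12.8), Dbp (78.2 ± 13.2), Bhlhe40 (75.7 ± 5.87) and Clock (72.8 ± 5.86) followed within their spread. Neighbours that did not differ beyond 1 SD were, in stress, Nr1d1, Dbp, Bhlhe40 and Clock, and Per3 and Arntl. In control they were Bhlhe40 and Cry1, Npas2 and Per3, and Per3 and Per2. Npas2, Per3 and Per2 lay between Clock and Arntl in both groups, at 36.9 ± 1.18, 17.4 ± 4.57 and 25.1 ± 2.92 per kb in stress and 28.7 ± 2.75, 28.3 ± 5.45 and 23.4 ± 2.34 in control.

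**Figure D3:**
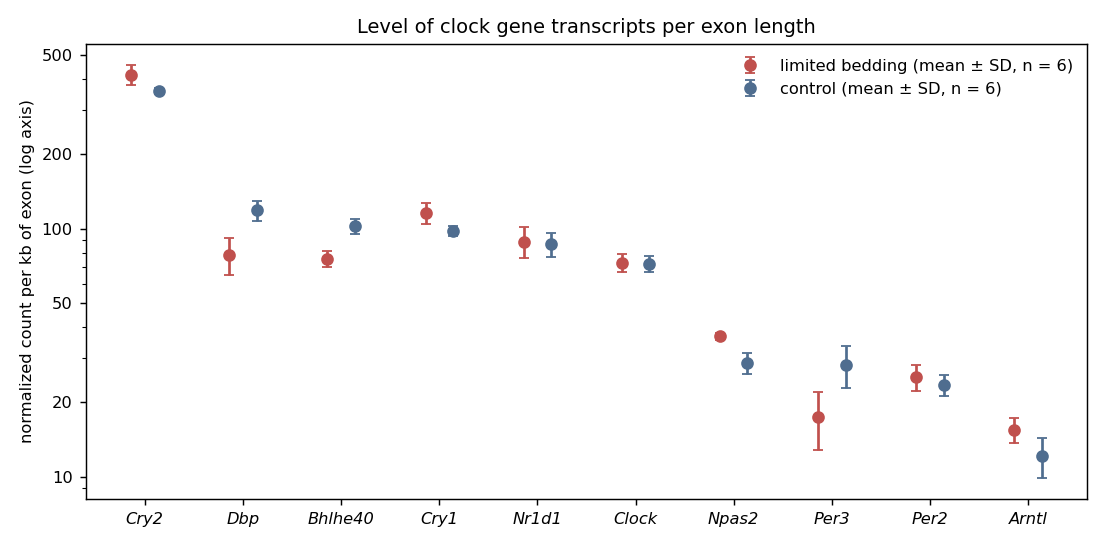
Normalized counts per kb of annotated exon (vertical log axis) of the 10 clock genes, ordered by the control mean, as mean and SD of 6 limited bedding libraries (left point) and 6 control libraries (right point). Cry2 stands above the rest at 418 in stress and 360.4 in control, and Dbp and Bhlhe40 change place with Cry1 between the groups.

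Beyond the 10 genes, 42 further genes of the clock were tested, of which 17 were called (10 higher, 7 lower, 40.5%, against 26.2% of all genes), with a median log2 fold change of 0.02. This list too was chosen with earlier results of these data known, so its shares are a description only. With the red blood cell score as a covariate 5 of the 42 were called (1151 of all genes), and with the satellite glia score 5 (1423 of all genes). In females 2 were called (4.8%, against 11% of all genes) and in males 11 (26.2%, against 15.8%). Of 15 kinases, ubiquitin ligases and proteases that act on clock proteins, 3 rose and 1 fell (26.7%, against 26.2% of all genes). Csnk1e, a kinase of Period proteins, averaged 2171 ± 102 normalized counts in stress and 1906 ± 99.7 in control (0.19 ± 0.04, limma adjusted p = 0.00541). Btrc, the ligase that marks Period proteins for degradation, averaged 1953 ± 57.9 in stress and 1722 ± 76.0 in control (0.18 ± 0.04, limma adjusted p = 0.00449). Prkaa2, an AMP-activated kinase subunit that targets cryptochromes, rose by 0.19 ± 0.07 and Csnk2a1, a casein kinase subunit, fell by 0.12 (limma adjusted p of 0.0457 and 0.0391).

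Of 6 partners of clock proteins, 2 rose (33.3%, against 26.2% of all genes called, 12.8% higher). These were Hdac3, a deacetylase (0.19 ± 0.04, limma adjusted p = 0.00208), and Ncor1, the corepressor through which REV-ERB acts (0.17 ± 0.05, limma adjusted p = 0.0152). Of 8 genes that cycle in many tissues, 3 rose and 1 fell (50%, against the same 26.2%). Cdkn1a, a cell cycle inhibitor, averaged 3711 ± 374 normalized counts in stress and 2944 ± 242 in control (0.33 ± 0.06, limma adjusted p = 0.00105), with no overlap. Lonrf3 rose by 0.39 ± 0.14 and the tetraspanin Tspan4 by 0.24 ± 0.07 (limma adjusted p of 0.0478 and 0.0129). Tsc22d3, which is also induced by glucocorticoids, fell by 0.21 (limma adjusted p = 0.0112).

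**Figure D4:**
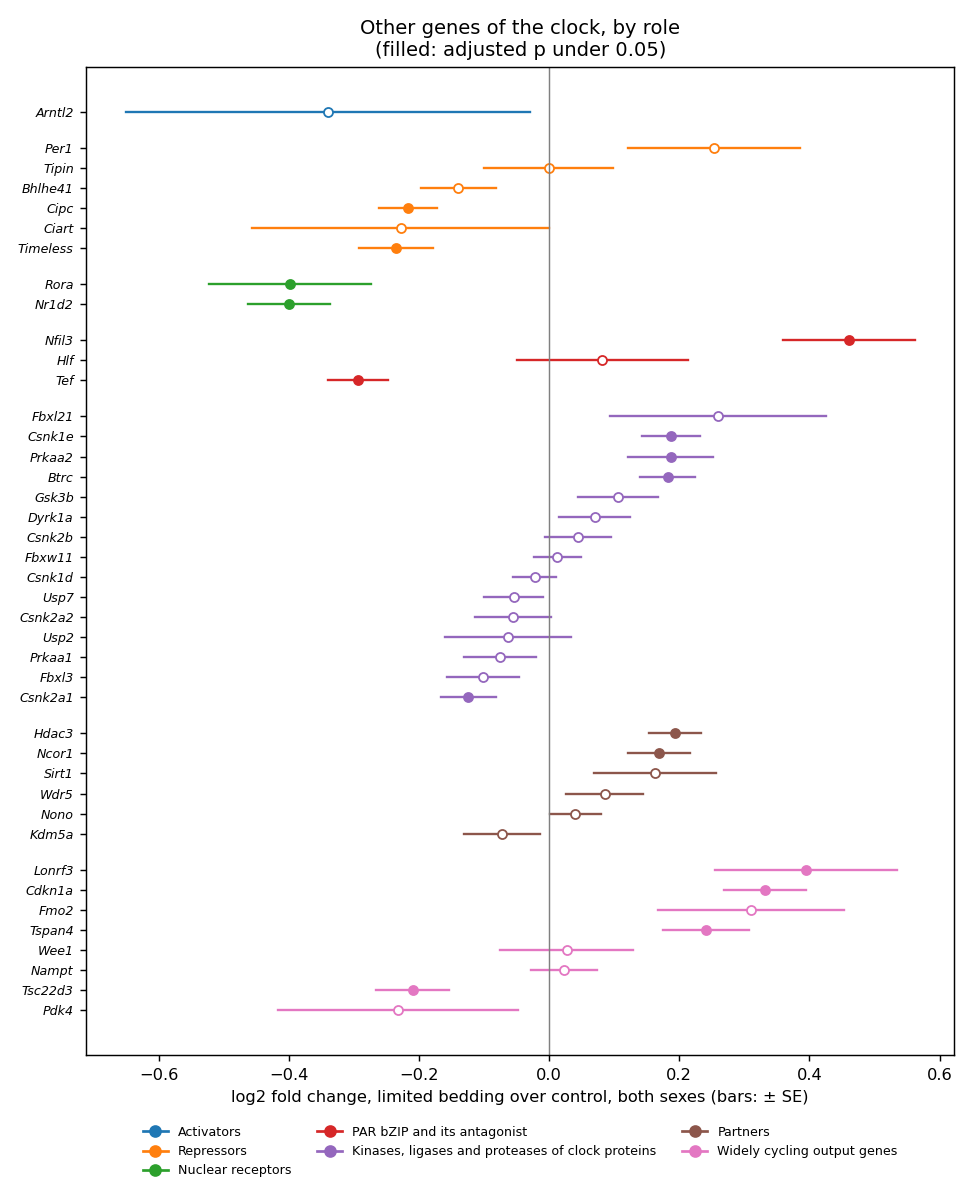
Log2 fold change of limited bedding over control over both sexes (horizontal axis, bars are the SE) for 41 further clock genes, coloured by role. Filled points passed an adjusted p of 0.05, 9 of them to the right of 0 and 7 to the left. Nfil3 has the highest value of those shown that passed, at 0.46, and Nr1d2, Rora and Tef have the lowest.

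Whether clock genes varied together between libraries of a group was examined on deviations from the 4 group means over 12 libraries. Of 45 pairs of the 10 genes none passed an exact two-sided permutation test within groups after Benjamini-Hochberg adjustment (lowest adjusted p = 0.757), and 1 had an unadjusted p under 0.05. The highest correlations were those of Npas2 with Dbp (Pearson r = 0.65, exact permutation p = 0.0309, Spearman rho = 0.71, exact permutation p = 0.0216, r = 0.54 without the 2 farthest libraries), Cry2 with Dbp (r = 0.65, exact permutation p = 0.0594, rho = 0.62, p = 0.0965, 0.44 without 2) and Clock with Nr1d1 (r = 0.51, exact permutation p = 0.0910, rho = 0.59, p = 0.0756, 0.54 without 2). The lowest were those of Bhlhe40 with Per2 (r = -0.54, exact permutation p = 0.124, rho = -0.52, p = 0.137, -0.45 without 2), Cry1 (r = -0.53, exact permutation p = 0.215, rho = -0.35, p = 0.367, -0.34 without 2) and Nr1d1 (r = -0.44, exact permutation p = 0.205, rho = -0.48, p = 0.118, -0.43 without 2). The adjusted p was 0.757 for r and at least 0.768 for rho in each of these pairs. With 3 libraries a group this shows neither that the genes vary together nor that they do not.

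The genes whose log2 values followed Dbp most closely over the 12 libraries were Tef (Pearson r = 0.96), Anxa11 (0.95) and Sipa1l1 (0.95), and for Bhlhe40 they were Borcs7 (0.96), Syngr3 (0.95) and Kcnip2 (0.95). These values describe the whole profile, the bedding difference included, and were not tested. Of the 15194 genes tested, Tef was thus the nearest match to Dbp by this measure.

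By the authors' deposited table, 7 of the 10 genes had an adjusted p under 0.05, 4 higher and 3 lower in stress. Of all 15322 genes in it, 4092 did, 2017 higher and 2075 lower. In the authors' deposited table Per3 was at a log2 fold change of -0.72 (adjusted p = 2.07e-06), Dbp at -0.60 (8.60e-08) and Bhlhe40 at -0.43 (3.35e-07). In the authors' deposited table Npas2 was at 0.37 (adjusted p = 0.00331), Cry2 at 0.21 (0.00156), Cry1 at 0.24 (0.0149) and Arntl at 0.35 (0.0486). Arntl thus lay next to the threshold in both analyses, which rest on the same 12 libraries.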

How the data were processed

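Libraries were made from total RNA with a directional kit, per the labels' protocols, and STAR, Salmon, DESeq2 and mm10 are named in the submitters' processing notes, with no version, role, annotation or strand setting. The authors deposited a normalized count per gene and library (a signal that is not whole, scaled so that libraries have like medians), the mean of the 12 columns, and their own log2 fold change (stress over control) with an error and a score made of both, with p-values and adjusted p-values. Low values lay within 0.1 of a whole read in 28.9% to 86.6% of cases, short of the 95% set for recovering reads. No count model was therefore used, and depth is an estimate. The members and lists were chosen with earlier results of these data known.

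In R 4.3.3, limma 3.58.1 was fitted to log2(value + 1), with 4 group means, a prior variance trended with mean expression, and Benjamini-Hochberg adjustment over 15194 genes with at least 10 in at least 3 libraries (128 removed). On this scale the change of low genes is understated. The fit was tested on simulated data. A marker score is the mean log2(value + 1) of a list. All 10 members are named, and of the wider list each role's called genes (at most 4) or else the gene of lowest p. Other genes named are said to be chosen after their values were seen, or overlap a member. Rorb and Gm129 of that list were not among the table's gene names. A further gene of that list is counted but not reported here. Levels and coordinates use GENCODE M21 exons on mm10, and promoter windows are RefSeq's on GRCm38.p6, the same assembly. Alternatives covered scaling, pseudocount, filter, prior variance, sample weights, model, replicate block, marker scores and each library left out.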

Additional observations from a re-analysis of the deposited data

Results flagged for a closer look

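Arntl in control male replicate 2 stood apart from the other 5 control libraries, at 124 normalized counts against at most 94.6, a gap of 0.682 of the range of the 6. Without that library Arntl was at a log2 fold change of 0.46 (limma adjusted p = 0.0138) in place of 0.36 (adjusted p = 0.0491). It was the only such library among 20 groups of 6 examined, and chance flags about 1 in 20.

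Clock values ran in opposite directions in the sexes. Each stress female library lay above each control female library and each stress male library below each control male library. Neither effect was called (limma adjusted p = 0.131 in females and 0.166 in males). How many of all genes separate in this way was not counted. The male effect minus the female effect was -0.33 ± 0.10 on the log2 scale, which did not pass the limma test (adjusted p = 0.515).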

How the results depend on the processing

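Over both sexes 7 clock genes were called under each scaling, pseudocount and filter tried, in the additive model and with the replicate block. It was 6 with 1 prior variance or with sample weights, Arntl losing its call in each (adjusted p of 0.0501 and 0.0771), and 5 to 6 when 1 library was left out. Per3, Dbp, Bhlhe40, Npas2 and Cry2 were called in each of these settings. Median-of-ratios scaling repeated the main fit (3984 of all genes called and Arntl at 0.36 in both), so of the scalings only the upper quartile was a separate check. With the red blood cell score the counts were 2 of the 10 over both sexes, 0 in females, 2 in males, 5 of the wider list and 1151 of all genes (3984 without it). With the satellite glia score they were 4, 0, 4, 5 and 1423. Sample weights gave 5 in females. Leaving out 1 library gave 1 to 4 in females, 2 to 4 in males, 13 to 17 of the wider list (17 in full) and 3161 to 3953 of all genes. In females 1 gene was left without stress female replicate 1 or 3, Bhlhe40 each time, as Dbp (adjusted p of 0.0861 and 0.105) and Npas2 (0.0717 and 0.0673) lost theirs. In males 2 were left without stress male replicate 3 or control male replicate 1, as Bhlhe40 and Cry2 lost theirs (0.0772 and 0.0755, and 0.0649 and 0.0621). No direction of a called gene was reversed. No setting gave a call for the male effect minus the female effect, for males against females, or for a pair of clock genes, whose alternatives were chosen after the data were seen. The causes of these shifts were not tested.

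The replicate block within sex gave 7 clock genes, 4133 of all genes and 16 of the wider list, and the block across sexes 7, 4176 and 16. Same-numbered stress and control libraries of a sex deviated together at r from -0.02 to 0.15, and differently numbered ones at r from -0.19 to 0.13. These ranges overlap and do not settle whether the numbers are pairs. No label says that a number is shared between groups, so the numbers were not taken as pairs. The additive model gives no separate effect in the sexes, and the block within sex none between them.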
